A study of Saccharomyces cerevisiae with 36 samples.

Results

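Folding genes of the endoplasmic reticulum, 9 in number, and the gene of their transcription factor, HAC1, were followed through a short heat treatment of budding yeast. The set was chosen by systematic name and held 10 of the 6697 genes in the deposited count table: KAR2 (YJL034W), LHS1 (YKL073W), SIL1 (YOL031C), JEM1 (YJL073W), SCJ1 (YMR214W), PDI1 (YCL043C), EUG1 (YDR518W), MPD1 (YOR288C), ERO1 (YML130C) and HAC1 (YFL031W). The rule itself used no measured value, but the set was chosen with earlier results of these data known. All 10 passed the filter on low counts, in the total RNA and in the fractions.

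RNA was sequenced from Saccharomyces cerevisiae of the W303 Ade+ background after 10 min at 30, 40 or 42 °C. Both strains carried an mCherry tag on Ded1, an RNA helicase that acts in translation initiation: the strain called WT here had the genotype Ded1-mCherry, and the strain called IDRm had Ded1_IDRm-mCherry. For each strain and temperature, total RNA, RNA of the insoluble pellet and RNA of the soluble supernatant were sequenced, which gave 18 groups of 2 libraries. The 2 libraries of a group came from duplicate cultures of the strain, grown at 30 °C and divided among the temperatures, per the labels' protocols.

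Proteins that enter the endoplasmic reticulum (ER) fold with the help of the Hsp70 chaperone Kar2, its nucleotide exchange factors and J-domain partners, and of enzymes that form and rearrange disulfide bonds. When unfolded proteins accumulate there, the ER membrane protein Ire1 cuts an intron out of HAC1 mRNA, the tRNA ligase Trl1 joins the exons, and the Hac1 protein made from the spliced mRNA activates many of the folding genes (the unfolded protein response). KAR2 is also known as a target of the heat shock factor Hsf1.

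Coordinates are those of the R64 reference, the build of the deposited files. KAR2 lies at chrX:381327-383375 (+ strand), LHS1 at chrXI:296430-299075 (+), SIL1 at chrXV:266264-267529 (-), JEM1 at chrX:303181-305118 (+) and SCJ1 at chrXIII:695350-696483 (+). PDI1 lies at chrIII:48653-50221 (-), EUG1 at chrIV:1478608-1480161 (+), MPD1 at chrXV:852121-853077 (-) and ERO1 at chrXIII:11483-13174 (-). HAC1 lies at chrVI:75179-76147 (+), with a first exon of 661 bases, an intron of 252 bases and a second exon of 56 bases. None of the 10 coding regions overlapped another annotated gene; transcript ends outside the coding regions were not compared.

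The HAC1 intron is shown because the mRNA that encodes the active factor lacks it, and because gene counts do not separate the spliced from the unspliced form. In the lines for the 5′ boundary (chrVI:75825-75854, + strand) and the 3′ boundary (chrVI:76077-76106, + strand), capitals mark intron bases. In the third line capitals mark the second exon as it follows the first after splicing.
HAC1 5′ boundary: attggcgtaatccagCCGTGATTACGATGA
HAC1 3′ boundary: TGCTTGTACTGTCCGaagcgcagtcaggtt
HAC1 joined exons: attggcgtaatccagAAGCGCAGTCAGGTT

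Upstream sites are shown because the genes of the set differ in which response elements they hold. The 300 bases before each start codon were searched on both strands of R64 for CAGCGTG, the core of the unfolded protein response element bound by Hac1, for TACGTG, the core of a second such element, for the heat shock cores TTCNNGAA and GAANNTTC, which may overlap, and for the stress response element AGGGG. All sites are written on the gene's own strand with the core in capitals. KAR2 held 3 overlapping heat shock cores over 18 bases (chrX:381116-381145, +) and 1 CAGCGTG core (chrX:381156-381185, +). LHS1 held CAGCGTG on the opposite strand (chrXI:296320-296349, +). The TACGTG core was found in ERO1 (chrXIII:13296-13325, -), SIL1 (chrXV:267614-267643, -), EUG1 (chrIV:1478422-1478451, +) and MPD1 (chrXV:853162-853191, -).
KAR2 heat shock cores: ttaataGAACCTTCTGGAAATTTCacccgg
KAR2 CAGCGTG: gaggaactggaCAGCGTGtcgaaaaagttg
LHS1 CAGCGTG, opposite strand: ataatatcgaaCACGCTGttataaaagtga
ERO1 TACGTG: aacgatacggagTACGTGtcataaaaactt
SIL1 TACGTG, opposite strand: atgtgaaaaggcCACGTAaatgatagagca
EUG1 TACGTG, opposite strand: ttcccttcaaaaCACGTAaacgatagttgg
MPD1 TACGTG, opposite strand: aattaaaattgaCACGTAaaagttaaataa

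Among 6007 upstream windows of the same length, 1.23% held CAGCGTG, 8.21% held TACGTG, 13.1% held TTCNNGAA, 11.5% held GAANNTTC and 22.2% held AGGGG. HAC1 held 1 GAANNTTC core, and none of the 10 windows held AGGGG. PDI1, JEM1 and SCJ1 held no match to these letters in this window. A match describes the sequence and does not show that a factor binds there. EUG1 held the TACGTG core, as ERO1, MPD1 and SIL1 did, but rose less than these at 40 °C in total RNA. LHS1 held CAGCGTG, as KAR2 did, and rose less than KAR2. Whether any element goes with the size of the rise was not tested.

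Library totals ran from 4934241 to 13730247 counts, and the 10 genes had between 143 and 121570 counts in a library. Levels are counts scaled to a common library total (CPM). Correlations between replicates on the log scale were between 0.978 and 0.998, lowest for soluble WT RNA at 42 °C, where replicate 2 had the lowest total of all libraries. Fold changes are log2 values ± the standard error of the fit, and a gene was called changed at a Benjamini-Hochberg adjusted p under 0.05 over all genes in the edgeR quasi-likelihood test, with 2 libraries per group. Scaling used only the counts, so a change is relative to the other transcripts. Fewer cells of a kind cannot be told apart from less RNA per cell. DED1, the gene that differs between the strains, was lower in total IDRm RNA at 30 °C by a log2 difference of -0.67 ± 0.17 (edgeR adjusted p = 0.017). At 40 °C the difference was -0.68 ± 0.17 (adjusted p = 0.0187), and at 42 °C it was -0.43 ± 0.17 (adjusted p = 0.0764). The fractions at 30 °C did not show it. Pellets held 1431 and 1419 CPM in WT and 1474 and 1638 CPM in IDRm, and soluble RNA 1111 and 1227 CPM, and 1298 and 1222 CPM. IDRm lay below WT in both fractions at 40 °C, and in the soluble RNA only at 42 °C.

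In total RNA at 40 °C the 9 folding genes rose and HAC1 fell, in both strains. In WT, 9 of the 10 genes were called higher and 1 lower, against 37.1% and 32.6% of the 6090 genes tested. In IDRm the counts were also 9 and 1, against 37.8% and 32.6%. The median log2 change of the 9 folding genes was 0.90 in WT and 1.13 in IDRm, beside 0.07 and 0.08 for all genes. Sizes differed widely within the set, from 13.6-fold for ERO1 to 1.44-fold for SCJ1 in WT. At 42 °C the rise was smaller: 5 genes were called higher and 1 lower in WT (background 33.3% and 28.1%), and 6 higher and 1 lower in IDRm (33.7% and 31%). The comparisons of 40 and of 42 °C share the libraries at 30 °C.

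**Figure D1:**
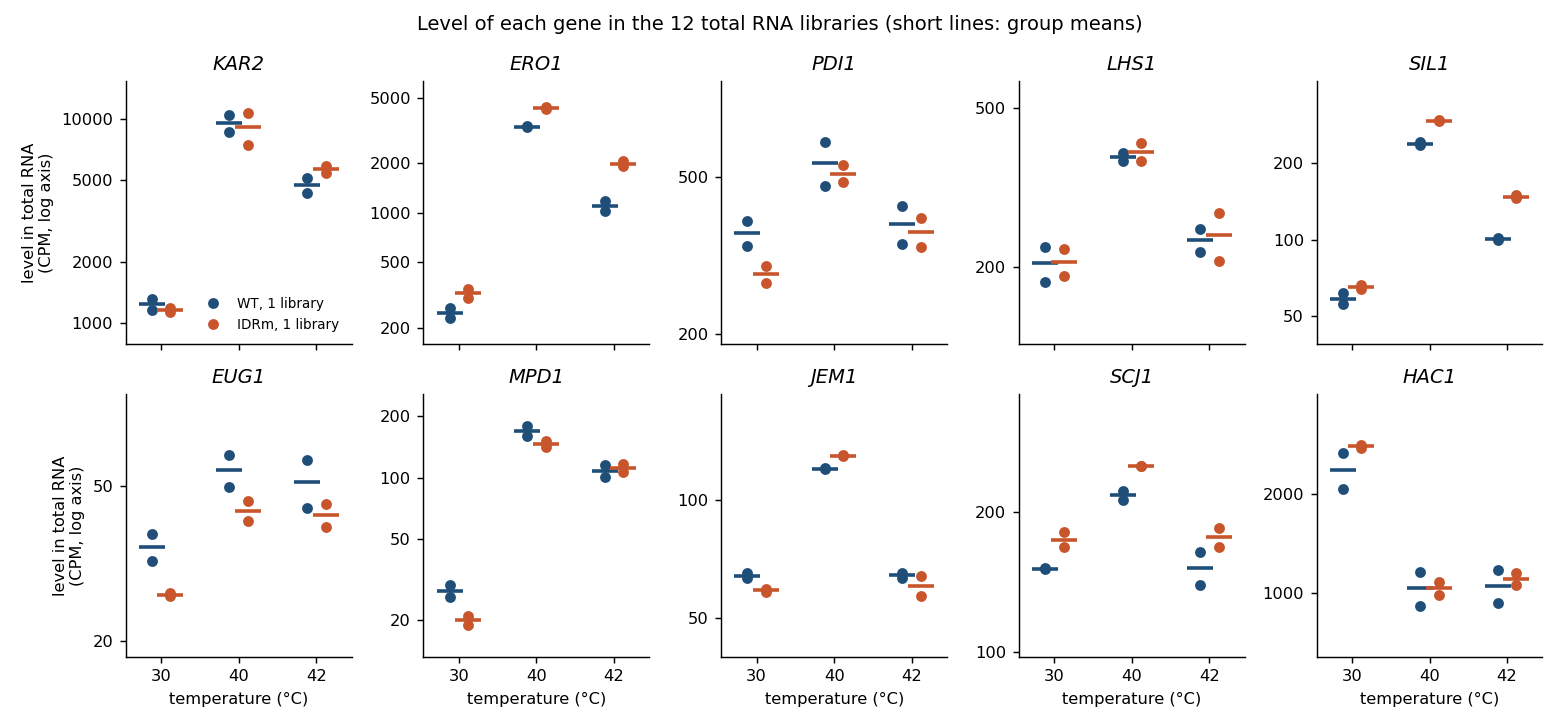
Level of each of the 10 genes in total RNA, in CPM on a log axis, at 30, 40 and 42 °C in WT (blue) and IDRm (orange). Points are single libraries, 2 per group, and short lines are group means. All folding genes were higher at 40 than at 30 °C in both strains, and HAC1 was lower at 40 and 42 °C.

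KAR2 encodes the ER Hsp70 chaperone (BiP). In WT its level was 1315 and 1157 CPM at 30 °C, 8669 and 10478 CPM at 40 °C, and 4323 and 5130 CPM at 42 °C. In IDRm it was 1129 and 1178 CPM at 30 °C, 10747 and 7470 CPM at 40 °C, and 5450 and 5891 CPM at 42 °C. The 3 temperatures did not overlap in either strain, while the strains overlapped at 30 and 40 °C and the IDRm libraries lay above the WT libraries at 42 °C. At 40 °C KAR2 rose 7.75-fold in WT (log2 2.95 ± 0.18, edgeR adjusted p = 6.18e-10) and 7.89-fold in IDRm (2.98 ± 0.18, adjusted p = 4.83e-10). From 40 to 42 °C it fell by 1.02 ± 0.17 on the log2 scale in WT (adjusted p = 0.000134). The IDRm fall of 0.68 ± 0.17 (log2 change -0.68, adjusted p = 0.00401) was not called without replicate 1 at 40 °C (-0.39, adjusted p = 0.111).

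LHS1, an Hsp70-related nucleotide exchange factor for Kar2, rose less. Its WT level was 184 and 225 CPM at 30 °C, 368 and 386 CPM at 40 °C, and 219 and 249 CPM at 42 °C. The libraries at 40 °C lay above all others, while those at 30 and 42 °C overlapped. The log2 change at 40 °C was 0.88 ± 0.15 in WT (edgeR adjusted p = 5.58e-05) and 0.91 ± 0.15 in IDRm (adjusted p = 3.8e-05). At 42 °C it did not pass the test in either strain, with 0.19 ± 0.15 in WT (adjusted p = 0.266) and 0.22 ± 0.15 in IDRm (adjusted p = 0.202).

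SIL1 encodes the other exchange factor for Kar2, and it rose by more than LHS1. In WT it stood at 55.7 and 61.5 CPM at 30 °C, 236 and 242 CPM at 40 °C, and 100.1 and 101.5 CPM at 42 °C. In IDRm it stood at 66.1 and 63.8 CPM, 293 and 295 CPM, and 145.5 and 150.4 CPM at the same temperatures. No groups of the same strain overlapped, and the IDRm libraries lay above the WT libraries at all 3 temperatures. SIL1 rose 4.07-fold at 40 °C in WT (2.02 ± 0.11, edgeR adjusted p = 1.14e-10) and 1.72-fold at 42 °C (0.78 ± 0.11, adjusted p = 9.72e-06). In IDRm the rises were 4.53-fold (2.18 ± 0.11, adjusted p = 4.05e-11) and 2.28-fold (1.19 ± 0.10, adjusted p = 7.23e-08).

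JEM1 and SCJ1, which encode J-domain proteins of the ER membrane and lumen that stimulate the ATPase of Kar2, rose at 40 °C and were near their level at 30 °C by 42 °C. JEM1 was at 65.0 and 63.1 CPM in WT at 30 °C, at 120.1 and 119.2 CPM at 40 °C, and at 65.2 and 63.3 CPM at 42 °C. SCJ1 was at 151.7 and 150.8 CPM, at 222 and 213 CPM, and at 139 and 164 CPM. For both genes only the 40 °C libraries stood apart from the others of the strain, and IDRm had the same order. JEM1 rose by 0.90 ± 0.10 at 40 °C in WT (edgeR adjusted p = 9.49e-07) and 1.13 ± 0.10 in IDRm (adjusted p = 6.03e-08), and SCJ1 by 0.52 ± 0.11 (adjusted p = 0.000577) and 0.53 ± 0.11 (adjusted p = 0.000493). At 42 °C all 4 changes against 30 °C were between 0.00 and 0.04 and none was called.

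Among the protein disulfide isomerases, which form, break and rearrange disulfide bonds, MPD1 rose far more than PDI1 and EUG1. MPD1 was at 29.7 and 26.0 CPM in WT at 30 °C, at 180.4 and 160.8 CPM at 40 °C, and at 116.0 and 100.5 CPM at 42 °C. IDRm had 18.8 and 20.9 CPM, 152.4 and 140.8 CPM, and 117.2 and 106.6 CPM, with no overlap between temperatures in either strain. The rise at 40 °C was 6.14-fold in WT (2.62 ± 0.13, edgeR adjusted p = 5.99e-11) and 7.36-fold in IDRm (2.88 ± 0.13, adjusted p = 2.15e-11). From 40 to 42 °C MPD1 fell by 0.66 ± 0.12 in WT (adjusted p = 0.000287). In IDRm its change was -0.39 ± 0.12 (adjusted p = 0.015), which was not called without replicate 1 at 40 °C (-0.32) or replicate 2 at 42 °C (-0.31).

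PDI1, the essential and most abundant transcript of these isomerases, stood at 388 and 335 CPM in WT at 30 °C, 475 and 614 CPM at 40 °C, and 423 and 340 CPM at 42 °C. The 2 libraries at 40 °C lay above the rest but far from each other. Its log2 change at 40 °C was 0.59 ± 0.15 in WT (edgeR adjusted p = 0.0022), and without replicate 2 at 40 °C it was 0.37 and not called. In IDRm the rise was 0.85 ± 0.15 (adjusted p = 0.000105). The IDRm change at 42 °C, 0.36 ± 0.15 (adjusted p = 0.0478), was not called without replicate 1 or 2 at 30 °C (0.40 and 0.26) or replicate 2 at 42 °C (0.21). From 40 to 42 °C the changes were -0.52 ± 0.15 in WT (adjusted p = 0.00982) and -0.49 ± 0.15 in IDRm (adjusted p = 0.0155). The WT call ended without replicate 2 at 40 °C (-0.33) or replicate 2 at 42 °C (-0.38), and the IDRm call without replicate 1 at 40 °C (-0.41) or replicate 1 at 42 °C (-0.38).

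EUG1, a PDI1-related protein, had the lowest mean level of the 10 genes per coding length in every group of total RNA. In WT it was at 37.6 and 32.03 CPM at 30 °C, 49.5 and 59.996 CPM at 40 °C, and 58.2 and 43.9 CPM at 42 °C. The 40 and 42 °C libraries overlapped each other and lay above those at 30 °C. EUG1 rose by 0.66 ± 0.15 in WT at 40 °C (edgeR adjusted p = 0.00124) and by 0.71 ± 0.16 in IDRm (adjusted p = 0.000758). At 42 °C the changes were 0.55 ± 0.15 (adjusted p = 0.00548) and 0.68 ± 0.16 (adjusted p = 0.00154). The WT call at 42 °C ended without replicate 2 at 30 °C (0.40) or replicate 1 at 42 °C (0.33).

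ERO1, the oxidase that supplies disulfide bonds to Pdi1, had the largest fold change of the 10 genes at 40 and 42 °C in both strains. WT libraries held 229 and 263 CPM at 30 °C, 3396 and 3305 CPM at 40 °C, and 1029 and 1189 CPM at 42 °C. IDRm libraries held 347 and 305 CPM, 4431 and 4268 CPM, and 1924 and 2070 CPM. Neither the temperatures nor the strains overlapped. At 40 °C ERO1 rose 13.6-fold in WT (3.77 ± 0.14, edgeR adjusted p = 3.12e-12) and 13.3-fold in IDRm (3.74 ± 0.14, adjusted p = 2.8e-12), and 1.74% of all genes had a larger WT change. At 42 °C the rises were 4.51-fold (2.17 ± 0.13, adjusted p = 1.17e-09) and 6.12-fold (2.61 ± 0.13, adjusted p = 1.21e-10). In IDRm the lead over MPD1 at 42 °C was small, as MPD1 went from a mean of 19.9 CPM at 30 °C to 111.9 CPM.

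HAC1 moved the other way. Its WT level was 2666 and 2077 CPM at 30 °C, 1155.5 and 909 CPM at 40 °C, and 927 and 1172 CPM at 42 °C. In IDRm it was 2829 and 2763 CPM, 984 and 1080 CPM, and 1151 and 1053 CPM. All libraries at 30 °C lay above all libraries at 40 and 42 °C, which overlapped each other. HAC1 was 2.30-fold lower at 40 °C in WT (-1.20 ± 0.16, edgeR adjusted p = 4.9e-06) and 2.71-fold lower in IDRm (-1.44 ± 0.16, adjusted p = 6.32e-07). At 42 °C it was 2.26-fold lower in WT (-1.18 ± 0.16, adjusted p = 9.97e-06) and 2.54-fold lower in IDRm (-1.34 ± 0.16, adjusted p = 1.97e-06). Whether reads of the intron were counted is not given in the sources used here, so these values are for all HAC1 mRNA that the count covers and say nothing of how much was spliced.

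**Figure D2:**
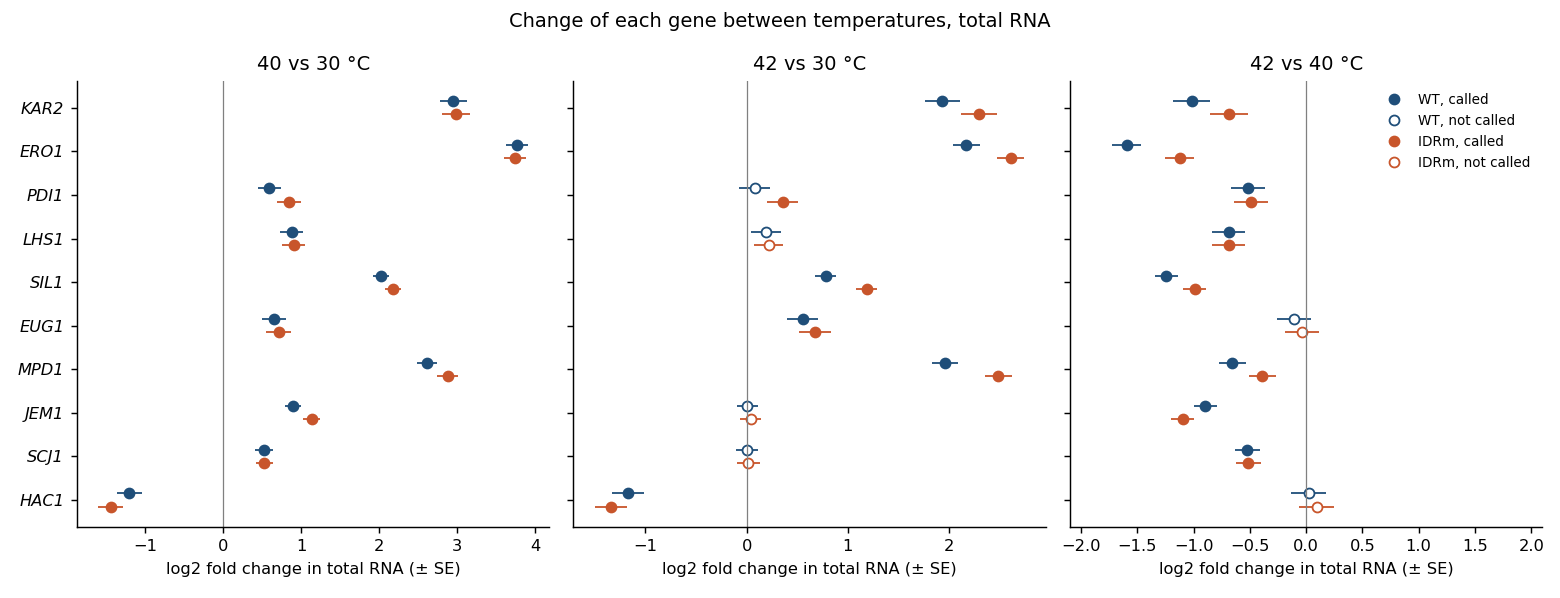
Log2 fold change of each gene in total RNA between temperatures, with the standard error of the edgeR fit, in WT (blue) and IDRm (orange). Filled points were called at an adjusted p under 0.05 and open points were not. In both strains 9 genes lie right of 0 at 40 against 30 °C, and 8 genes were called lower at 42 than at 40 °C.

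From 40 to 42 °C, 8 of the 10 genes were called lower and 0 higher in each strain (background 22.3% lower and 24.6% higher in WT, 21.1% and 21.2% in IDRm). No gene of the set was called higher at an unadjusted p under 0.05 either, since the same 8 genes made up all such results, and DESeq2 also called 8. Without IDRm replicate 1 at 40 °C, 5 were called in IDRm. The largest falls in WT were ERO1 (-1.60 ± 0.13) and SIL1 (-1.24 ± 0.10), and in IDRm ERO1 (-1.12 ± 0.13) and JEM1 (-1.10 ± 0.10). The exceptions were EUG1 (-0.10 ± 0.15 in WT and -0.04 ± 0.16 in IDRm) and HAC1 (0.02 ± 0.16 and 0.09 ± 0.16).

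Per kilobase of coding sequence, HAC1 was the highest of the 10 at 30 °C, with 3308 ± 581 CPM per kb in WT (SD, n = 2), ahead of KAR2 with 603 ± 54.3. At 40 °C the order changed to KAR2 with 4672 ± 624, ERO1 with 1980 ± 38.1 and HAC1 with 1440 ± 243 CPM per kb. At 42 °C in WT it was KAR2 with 2307 ± 279, HAC1 with 1463 ± 241 and ERO1 with 656 ± 67.0. HAC1 and ERO1 at 40 °C were separated by more than their SDs. At 30 °C the lowest levels were EUG1 with 22.4 ± 2.54, MPD1 with 29.1 ± 2.74 and JEM1 with 33.0 ± 0.678 CPM per kb, and MPD1 and JEM1 differed by little more than their SDs.

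The genes called between the strains in total RNA were ERO1, SIL1 and MPD1. At 42 °C, IDRm had 1.80-fold more ERO1 than WT (log2 0.85 ± 0.13, edgeR adjusted p = 0.000353; 95% interval 0.58 to 1.12) and 1.47-fold more SIL1 (0.55 ± 0.10, adjusted p = 0.0017; 0.34 to 0.77). These were 2 of 10 genes called, against 23.4% of all genes, and both calls held in every alternative run. At 30 °C, ERO1 was higher in IDRm by 0.41 ± 0.13 (adjusted p = 0.0484) and MPD1 was lower by 0.48 ± 0.14 (log2 difference -0.48, adjusted p = 0.0303), 2 of 10 against 12.9%. Neither was called without IDRm replicate 1 or 2 or without WT replicate 1 at 30 °C, where ERO1 differed by 0.30, 0.48 and 0.28 and MPD1 by -0.42, -0.57 and -0.41. At an unadjusted p under 0.05 there were 4 genes at 30 °C. Besides ERO1 and MPD1 these were PDI1 (95% interval -0.66 to -0.02) and EUG1 (-0.74 to -0.06), both lower in IDRm and not called. At 40 °C, edgeR called 0 of 10, against 11.1% of genes, while 3 genes had an unadjusted p under 0.05 and DESeq2 called 1. The 3 were ERO1 (0.11 to 0.64), SIL1 (0.09 to 0.51) and EUG1 (-0.67 to -0.02).

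KAR2 and HAC1 did not pass the test between strains at any temperature. For KAR2 the 95% interval of the log2 difference was -0.45 to 0.26 at 30 °C, -0.42 to 0.28 at 40 °C and -0.09 to 0.61 at 42 °C. For HAC1 it was -0.09 to 0.57, -0.33 to 0.33 and -0.26 to 0.40. Whether the response to heat itself differed was tested as an interaction, and edgeR called 0 of the 10 genes for 40 against 30 °C, 42 against 30 °C and 42 against 40 °C (background 1.64%, 11.8% and 0.739%). At an unadjusted p under 0.05 there were 0, 3 and 1 genes, and DESeq2 called 0 in each. For 42 against 30 °C, edgeR called 1 without WT replicate 1 or without WT replicate 2 at 30 °C. The 3 were MPD1 (0.53 ± 0.18 more rise in IDRm at 42 °C, adjusted p = 0.0701), ERO1 (0.44 ± 0.18, adjusted p = 0.124) and SIL1 (0.41 ± 0.15, adjusted p = 0.0837).

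The pellet and the soluble RNA were then compared within each strain and temperature. The pellet-soluble difference is the log2 ratio of a gene's level in the pellet to its level in the soluble RNA. Levels carry the TMM factors, so 0 means no difference relative to most other transcripts, and not an equal share of the counts. At 42 °C in WT these factors were 1.118 and 1.132 for the pellets and 0.8663 and 0.7456 for the soluble RNA. In WT at 30 °C, 8 of the 10 genes were called higher in the pellet and 1 lower, against 33.4% and 34.8% of 6141 genes, and their median was 0.54 beside -0.02 for all genes. In IDRm at 30 °C, 4 were higher and 2 lower (background 34.5% and 33.7%), and the 6 calls became 2 without pellet replicate 1 and 3 without soluble replicate 2. At 40 °C the counts were 4 higher and 2 lower in WT (37.9% and 36.1%) and 4 and 3 in IDRm (36.6% and 35.2%). At 42 °C they were 4 higher and 1 lower in WT (42.4% and 36.7%) and 3 and 4 in IDRm (41.3% and 37.4%). Scaling by DESeq2's size factors moved the median of all genes by over 0.1 at 30 °C, from -0.02 to 0.14 in WT and from 0.05 to 0.17 in IDRm, so small differences depend on the scaling.

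**Figure D3:**
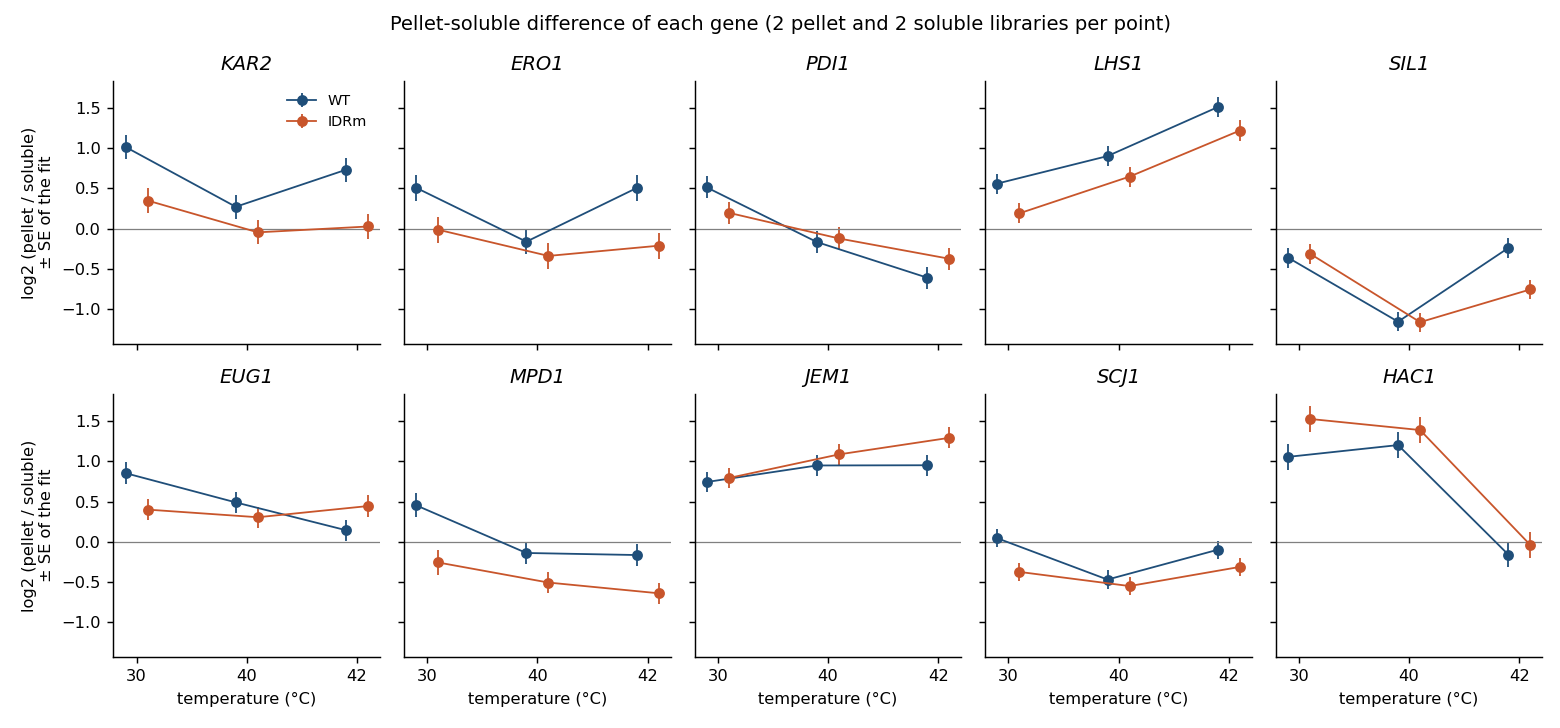
Log2 ratio of pellet to soluble level for each gene at 30, 40 and 42 °C in WT (blue) and IDRm (orange), with the standard error of the edgeR fit and 2 pellet and 2 soluble libraries per point. HAC1 drops to near 0 at 42 °C in both strains, LHS1 climbs with temperature, and SIL1 is lowest at 40 °C.

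The shift of this difference with temperature was called for 6 of the 10 genes in WT from 30 to 40 °C (background 21%), 5 from 30 to 42 °C (38.3%) and 4 from 40 to 42 °C (24.6%). In IDRm it was called for 1 (21.8%), 5 (37.2%) and 2 (15.4%). The 6 in WT from 30 to 40 °C, all toward the soluble RNA, were SIL1, KAR2, PDI1, ERO1, MPD1 and SCJ1. Many of the calls in these comparisons rest on single libraries. From 30 to 40 °C the WT count was 1 to 3 without any 1 of the 8 libraries except soluble replicate 2 at 30 °C. From 40 to 42 °C it was 2 without replicate 2 of either fraction at 40 °C or pellet replicate 1 at 42 °C. In IDRm the count from 30 to 42 °C was 2 or 3 without any 1 of the 30 °C libraries or replicate 2 of either fraction at 42 °C, and that from 40 to 42 °C was 1 without any 1 of the 40 °C libraries, pellet replicate 2 or soluble replicate 1 at 42 °C.

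HAC1 was the transcript most enriched in the pellet among the 10 at 30 and 40 °C. In WT at 30 °C it led KAR2 by less than the standard error. On the TMM scale HAC1 was no longer called enriched at 42 °C in either strain. Its mean estimated share in the pellet, described below, was then 38.8% ± 2.21 in WT beside 33.3% ± 5.47 for all mRNA (SD, n = 2). In IDRm it was 22.6% ± 5.57 beside 20.6% ± 3.17. In WT, the pellet libraries held 3915 and 3779 CPM at 30 °C, 2289 and 2068 CPM at 40 °C, and 1501.5 and 1550 CPM at 42 °C. The soluble libraries held 1913 and 1791 CPM, 1005 and 888 CPM, and 1358 and 2053 CPM. Pellet libraries lay above soluble ones at 30 and 40 °C, and the fractions overlapped at 42 °C on this scale. The pellet-soluble difference was 1.05 ± 0.16 at 30 °C (edgeR adjusted p = 9.16e-06), 1.20 ± 0.16 at 40 °C (adjusted p = 1.41e-06) and -0.16 ± 0.16 at 42 °C (adjusted p = 0.357).

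IDRm showed the same course for HAC1. Its pellets held 6071 and 5942 CPM at 30 °C, 2092 and 2207 CPM at 40 °C, and 1180 and 938 CPM at 42 °C, and its soluble RNA held 2026 and 2143 CPM, 838 and 804 CPM, and 1167 and 1011 CPM. The fractions were apart at 30 and 40 °C and overlapped at 42 °C. The differences were 1.53 ± 0.16 (edgeR adjusted p = 1.71e-07), 1.39 ± 0.16 (adjusted p = 2.53e-07) and -0.04 ± 0.16 (adjusted p = 0.818).

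The shift of the HAC1 difference from 30 to 42 °C was -1.21 ± 0.22 in WT (edgeR adjusted p = 0.000313) and -1.57 ± 0.22 in IDRm (adjusted p = 2.28e-05), and 95.1% and 97.6% of genes had a higher value. Both shifts were called in every alternative run. Without soluble WT replicate 2 at 42 °C, the library with the fewest counts, the WT shift was -0.89 (adjusted p = 0.000716) and the WT difference at 42 °C was 0.17. Within the pellet, the log2 change of HAC1 from 30 to 42 °C was -1.33 ± 0.16 in WT (adjusted p = 1.2e-06) and -2.504 ± 0.17 in IDRm (adjusted p = 3.25e-10). In the soluble RNA the change was -0.12 ± 0.16 in WT (adjusted p = 0.536) and -0.94 ± 0.16 in IDRm (adjusted p = 3.59e-05). Without soluble WT replicate 2 at 42 °C, the WT change was -0.45 (adjusted p = 0.0114) and was called, and without replicate 1 it was 0.14 (adjusted p = 0.385). Of all genes, 47.9% were called in the WT pellet and 54.4% in the IDRm pellet in this comparison, and 59.1% and 63.1% in the soluble RNA. The difference between the strains in the shift was -0.35 ± 0.32 (adjusted p = 0.714; 95% interval -1.01 to 0.31).

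LHS1 moved in the opposite direction. In WT, pellets held 386 and 365 CPM at 30 °C, 631 and 585 CPM at 40 °C, and 444 and 421 CPM at 42 °C, and soluble RNA held 249.7 and 259 CPM, 312 and 338 CPM, and 151.6 and 151.4 CPM. The fractions did not overlap at any temperature. The pellet-soluble difference went from 0.56 ± 0.13 at 30 °C to 0.90 ± 0.13 at 40 °C and 1.51 ± 0.13 at 42 °C (edgeR adjusted p = 0.000541, 2.32e-06 and 2.05e-09). In IDRm it was 0.19 ± 0.13 (adjusted p = 0.183), 0.65 ± 0.13 (adjusted p = 0.000115) and 1.22 ± 0.13 (adjusted p = 3.65e-08). The shift from 30 to 42 °C was 0.95 ± 0.18 in WT (adjusted p = 0.00035) and 1.03 ± 0.18 in IDRm (adjusted p = 0.000149), and both held in every alternative run.

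JEM1 was in excess in the pellet throughout, with differences of 0.74 ± 0.13, 0.95 ± 0.13 and 0.95 ± 0.13 in WT and 0.79 ± 0.13, 1.09 ± 0.13 and 1.29 ± 0.13 in IDRm, and each of the 6 was called in every alternative run. Its shift from 30 to 42 °C was 0.21 ± 0.18 in WT (edgeR adjusted p = 0.392) and 0.50 ± 0.18 in IDRm (adjusted p = 0.0374). The IDRm call ended without any of 6 of the 8 libraries, both pellet and both soluble replicates at 30 °C and replicate 2 of each fraction at 42 °C, with values from 0.35 to 0.54.

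SIL1 was the member most enriched in the soluble RNA at 40 °C. WT pellets held 126 and 129 CPM of it at 40 °C and the soluble RNA 298 and 271 CPM, and in IDRm they held 145.3 and 141.5 CPM and 329 and 313 CPM. The fractions lay far apart in both strains. The difference at 40 °C was -1.16 ± 0.12 in WT (edgeR adjusted p = 5.02e-08) and -1.16 ± 0.12 in IDRm (adjusted p = 5.37e-08). Its shift from 30 to 40 °C was -0.80 ± 0.17 (adjusted p = 0.00266) and -0.85 ± 0.17 (adjusted p = 0.00176), and both held in every alternative run. From 40 to 42 °C the WT difference rose by 0.92 ± 0.17 (adjusted p = 0.000904), and the IDRm change was 0.41 ± 0.17 (adjusted p = 0.109).

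Relative to other transcripts, PDI1 and EUG1 shifted toward the soluble RNA in WT from 30 to 42 °C. Their mean estimated shares in the pellet, described below, did not fall. PDI1 had 28.5% ± 4.45 at 30 °C and 31.5% ± 2.78 at 42 °C (SD, n = 2). EUG1 had 33.5% ± 5.24 and 43.5% ± 3.68, and all mRNA had 20.2% ± 2.92 and 33.3% ± 5.47. PDI1 went from a pellet-soluble difference of 0.51 ± 0.14 at 30 °C to -0.61 ± 0.14 at 42 °C, a shift of -1.12 ± 0.20 (edgeR adjusted p = 0.000178), and 93.7% of genes had a higher value. The shift of EUG1 was -0.71 ± 0.19 (adjusted p = 0.0059). Without soluble replicate 2 at 42 °C the shifts were -0.93 (adjusted p = 0.000585) and -0.50 (adjusted p = 0.0369). In IDRm the PDI1 shift was -0.57 ± 0.20 (adjusted p = 0.0265), with a range of -0.69 to -0.44 when single libraries were left out, and 4 of those fits did not call it: without pellet replicate 1 or soluble replicate 2 at 30 °C, or replicate 2 of either fraction at 42 °C. EUG1 in IDRm had a shift of 0.04 ± 0.19 (adjusted p = 0.878). MPD1 was also called in WT, with a shift of -0.62. Its call ended without replicate 1 of either fraction at 30 °C (pellet -0.60, soluble -0.53). It also ended without replicate 2 of either fraction at 42 °C (pellet -0.55, soluble -0.39).

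KAR2 was in excess in the WT pellet at 30 °C (1.02 ± 0.15, edgeR adjusted p = 8.05e-06) and at 42 °C (0.73 ± 0.15, adjusted p = 0.000192), and its difference at 40 °C was 0.27 ± 0.15 (adjusted p = 0.109). A fit of only the WT libraries at 42 °C did not call it there. In IDRm it was between -0.05 and 0.35 at the 3 temperatures. The IDRm value of 0.35 ± 0.15 at 30 °C was also called (adjusted p = 0.0463), but not without pellet replicate 1 (0.43), pellet replicate 2 (0.27) or soluble replicate 1 (0.25). ERO1 had differences of 0.51 ± 0.16, -0.16 ± 0.16 and 0.51 ± 0.16 in WT. Its call at 30 °C ended without pellet replicate 2 (0.40) or soluble replicate 1 (0.29), its value there was 0.77 without soluble replicate 2, and its call at 42 °C ended without soluble replicate 2 (0.31). MPD1 in IDRm was lower in the pellet at 40 °C (-0.51 ± 0.13, adjusted p = 0.00189) and at 42 °C (-0.64 ± 0.13, adjusted p = 0.000219). SCJ1 was lower in the pellet at 40 °C in both strains, by -0.47 ± 0.11 in WT (adjusted p = 0.00103) and -0.55 ± 0.11 in IDRm (adjusted p = 0.000242).

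The strain difference in the pellet-soluble ratio was called by edgeR for 0 of the 10 genes at each temperature (background 1.09%, 1.12% and 6.95%), with 7, 0 and 4 genes at an unadjusted p under 0.05. At 42 °C the lowest adjusted p values were those of KAR2 (IDRm minus WT -0.71 ± 0.21, adjusted p = 0.0504; 95% interval -1.15 to -0.26) and ERO1 (-0.72 ± 0.22, adjusted p = 0.0586; -1.19 to -0.25). Without soluble WT replicate 2 they were -0.63 and -0.53, and MPD1 was called (-0.71, adjusted p = 0.0212, against -0.48 with all libraries). For the shifts between temperatures edgeR and DESeq2 called 0 of 10, with 0, 2 and 1 genes at an unadjusted p under 0.05 for 40 against 30, 42 against 30 and 42 against 40 °C (background 0%, 0.114% and 0%). Without soluble WT replicate 1 at 42 °C, edgeR called 2 for 42 against 30 °C.

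The share of each transcript in the pellet was estimated per harvest, by modelling the total level of all genes as a weighted sum of their soluble and pellet levels. This assumes that libraries with the same number come from 1 harvest and that no transcript was lost. For all mRNA the share was 20.2% ± 2.92 at 30 °C, 23.8% ± 2.18 at 40 °C and 33.3% ± 5.47 at 42 °C in WT (SD, n = 2), and 5.87% ± 2.87, 13.6% ± 0.594 and 20.6% ± 3.17 in IDRm. LHS1 had the highest share at 42 °C in WT, 66.3% ± 7.23 after 29.1% ± 4.47 at 30 °C. In IDRm, JEM1 had 42.2% ± 0.099 and LHS1 41.2% ± 7.23 at 42 °C, after 10.3% ± 5.11 and 6.88% ± 2.87.

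HAC1 was the only one of the 10 whose mean share was lower at 42 than at 40 °C. Its share in WT was 36.6% ± 3.01, 47.8% ± 2.16 and 38.8% ± 2.21 at 30, 40 and 42 °C, and in IDRm 15.96% ± 7.89, 33.0% ± 1.92 and 22.6% ± 5.57. SIL1 in WT had 17.8% ± 1.07, 15.2% ± 0.29 and 37.6% ± 11.9, and its values at 42 °C were the most spread but for ERO1 (49.9% ± 13.4). The IDRm values lay below the WT values for every gene at every temperature, as they did for all mRNA. The same pair of weights was used for all genes of a harvest. A lower share of all mRNA thus lowers the share of each gene, and the genes do not count as separate results. These shares are estimates without a test.

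**Figure D4:**
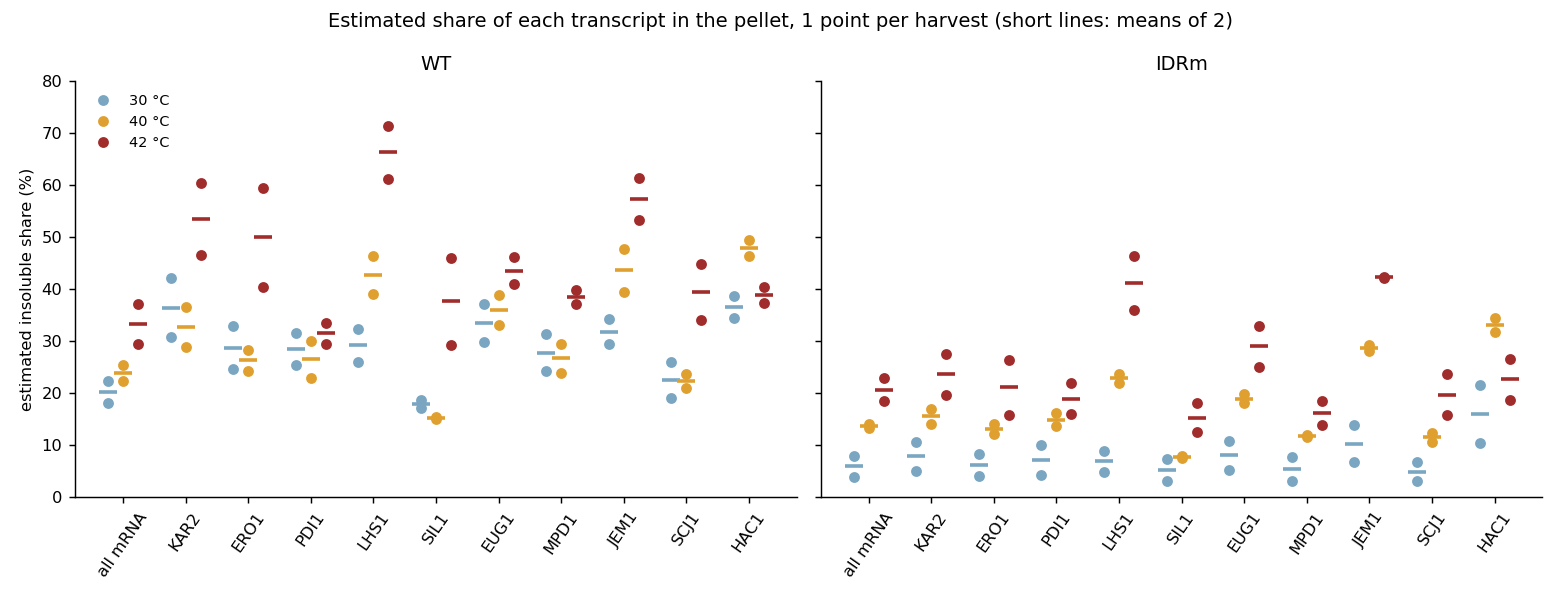
Estimated share of each transcript in the pellet, in percent, in WT (left) and IDRm (right) at 30, 40 and 42 °C. Points are single harvests, 2 per group, and short lines their means. HAC1 is highest at 40 °C in both strains, whereas LHS1 and JEM1 climb to 42 °C.

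Coding length goes with the pellet-soluble difference across genes. LHS1, the longest of the 10 coding regions at 2646 bases, had the highest shift of the set from 30 to 42 °C in both strains. HAC1, the shortest at 717, had the lowest. In WT the shift of HAC1 (-1.21) was below that of PDI1 (1569 bases, -1.12) by less than the standard error. Without soluble WT replicate 2 at 42 °C, PDI1 was the lower (-0.93 against -0.89). Over the 10 genes Spearman's rho between length and the difference at 42 °C was 0.72 in WT and 0.60 in IDRm. Over all 5787 genes with a length it was 0.58 and 0.65. At 30 °C rho was 0.22 and 0.16 over the 10 genes and 0.47 and 0.54 over all genes. At 40 °C it was 0.176 and 0.273 over the 10 genes and 0.498 and 0.555 over all genes. HAC1, though the shortest, was the most enriched in the pellet at 30 and 40 °C. The values of rho describe genes measured in the same libraries, which are not independent. The part of length in any single value was not tested.

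Other genes of the ER pathway were taken in 5 lists from common knowledge, with earlier results of these data known. In WT at 40 °C their counts stand beside 37.1% higher and 32.6% lower among all genes. Of 13 genes of ER-associated degradation, which removes misfolded proteins, 9 were called higher and 2 lower in WT at 40 °C, with a median of 0.65. The largest were the retrotranslocation factor DER1 (1.70 ± 0.12), the ubiquitin ligase HRD1 (1.69 ± 0.12), the J-protein HLJ1 (1.54 ± 0.11) and the conjugating enzyme UBC7 (1.402 ± 0.18). Of 12 other folding and glycan-trimming genes, 3 were higher and 5 lower, with a median of -0.17: the J-protein ERJ5 rose (1.78 ± 0.13, and 1.59 ± 0.13 at 42 °C), and the calnexin CNE1 (-1.20 ± 0.16) and the mannosidase-like MNL1 (-0.99 ± 0.11) fell.

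Of 21 genes of translocation into the ER and signal peptide removal, 2 were higher and 7 lower in WT at 40 °C, with a median of -0.14. The lower share is close to that of all genes (32.6%), and the higher share is below it (37.1%). The signal recognition particle gene SRP68 (-1.30 ± 0.13) and the genes of both subunits of its receptor (-1.06 ± 0.14 and -1.04 ± 0.14) fell. Of 9 oligosaccharyltransferase subunits, which attach N-glycans, 2 were higher and 3 lower, with OST2 at 2.42 ± 0.22 and OST6 at -1.08 ± 0.11. Among 4 genes that act on HAC1 splicing or Ire1, the ligase TRL1 (-0.93 ± 0.17) and the phosphatase PTC2 (-1.09 ± 0.15) fell and the phosphotransferase TPT1 (0.46 ± 0.14) rose. In IDRm at 40 °C the counts of these 5 lists, higher and lower, were 8 and 1, 5 and 5, 1 and 8, 3 and 3, and 1 and 3, beside 37.8% higher and 32.6% lower among all genes.

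The 13 cytosolic chaperones under Hsf1, given for scale, were all called higher at 40 °C in both strains, with medians of 4.88 in WT and 5.09 in IDRm. The folding genes of the ER thus had a smaller median, 0.90 in WT, and the highest of them, ERO1 at 3.77, was below the median of the cytosolic list.

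**Figure D5:**
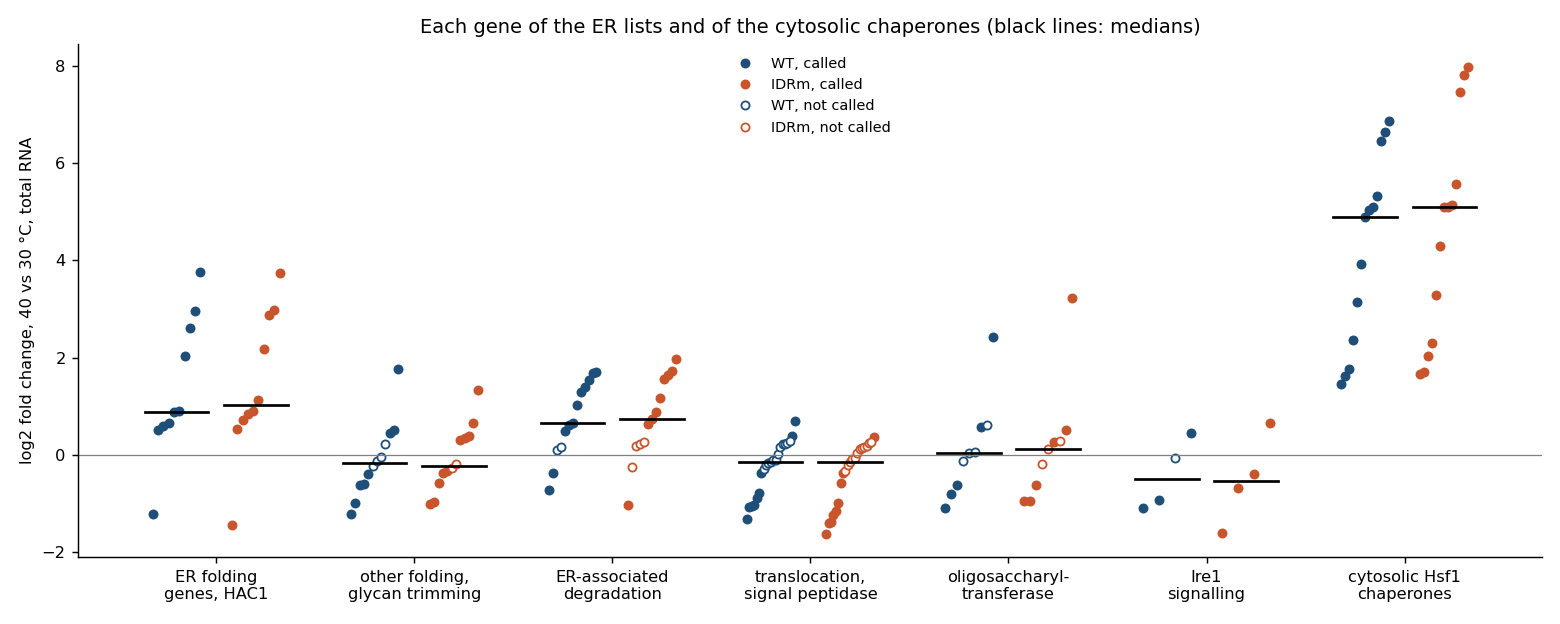
Log2 fold change at 40 against 30 °C in total RNA for each gene of the ER set, of 5 other ER lists and of the cytosolic Hsf1 chaperones, in WT (blue) and IDRm (orange). Filled points were called, open points were not, and black lines are medians. The ER folding genes lie mostly above 0, the other folding, translocation and Ire1 lists have medians below 0, and all cytosolic chaperones lie above 1.

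Over the 18 group means of log2 level, which share libraries' scaling and the heat treatment, KAR2 and ERO1 ran together (Pearson's r = 0.98), as did MPD1 with each of them (0.95 and 0.95) and LHS1 with JEM1 (0.94). Of 3748 genes with a standard name and at least 32 CPM on average, those most like KAR2 were TPS2 (r = 0.99), HXT5, PRM8, TPO4 and BDH2. Those most like ERO1 were CTT1 (r = 0.99), BDH2, RTC2, HXT5 and PRM8. The genes most like HAC1 were TOM71 (r = 0.94), NUP1, VHR2, ERC1 and ALG3 (r = 0.90). These are descriptions over 18 groups, without a test.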

How the data were processed

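The deposited values are raw counts of reads per gene, whole numbers that the authors had not normalised. The submitters' processing notes name bcl2fastq 2.19.1, the aligner STAR 2.5.2b and genome build R64. How reads were counted, with which strand setting and annotation, is not given in the sources used here.

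Genes with low counts were removed (filterByExpr, minimum count 10), TMM factors were applied, and genes were tested by edgeR's robust quasi-likelihood method (edgeR 4.0.16, limma 3.58.1, R 4.3.3). The 12 total libraries (6090 genes) and the 24 pellet and soluble libraries (6141 genes) were fitted separately, with 1 term per group and residual degrees of freedom of 6 and 12. P-values were adjusted by the Benjamini-Hochberg method over all genes of a contrast, with a threshold of 0.05. Models were tested on simulated counts. Alternatives were DESeq2 1.42.0, its size factors in edgeR, no filter, 1 fit of all 36 libraries, fits of only the groups compared, a replicate block, and each library left out in turn. Insoluble shares were fitted on genes with a minimum of 50 counts throughout a harvest, with 10 and 200 as alternatives.

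The members and lists were chosen with earlier results of these data known. The genes named were the 10 members in every contrast, in each list and contrast the called genes with the largest absolute change (at most 4), the 5 genes most like KAR2, ERO1 and HAC1, and DED1. Replicates came from duplicate cultures, so p-values measure the spread between 2 libraries, shared over all groups of a fit. Sequences and coordinates were read from the R64 RefSeq genome.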

Additional observations from a re-analysis of the deposited data

How the results depend on the processing

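No value changed direction and stayed called under an alternative. Of 380 values of the 10 genes, 183 were called, 137 of these in every alternative and 46 not in at least 1. Of the 197 values not called, 42 were called in at least 1 alternative. In every case the cause was not tested.

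Counts of called genes moved by over 1.5 times in these cases. In a fit of only the groups compared, pellet against soluble RNA at 42 °C gave 4 genes in place of 7 in IDRm and 3 in place of 5 in WT, the shift from 30 to 42 °C in IDRm 3 in place of 5, that from 30 to 40 °C in IDRm 3 in place of 1, and those from 40 to 42 °C 1 in place of 2 in IDRm and 2 in place of 4 in WT. The same fit gave 0 in place of 2 between strains at 30 °C and 3 in place of 0 at 40 °C. In 1 fit of all 36 libraries, pellet against soluble WT RNA at 42 °C gave 8, the shifts from 40 to 42 °C gave 1 in IDRm and 2 in WT, and the strains at 30 °C gave 1. DESeq2 gave 2 for the IDRm shift from 30 to 40 °C and 1 between strains at 40 °C. Its size factors in edgeR, and no filter, each gave 1 between strains at 30 °C.

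With single libraries left out, the number called ranged from 2 to 4 for pellet against soluble RNA in IDRm at 30 °C (6 with all), from 6 to 9 in WT at 30 °C, from 1 to 6 for the WT shift from 30 to 40 °C, from 2 to 6 for that from 40 to 42 °C, from 2 to 5 for the IDRm shift from 30 to 42 °C and from 1 to 3 for that from 40 to 42 °C. It ranged from 5 to 8 in total IDRm RNA at 42 against 40 °C, from 0 to 3 between strains at 30 °C, from 0 to 1 for the interaction at 42 against 30 °C, and from 0 to 2 for the strain difference of that shift.

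With the replicate block, 378 of 380 values kept their call. ERO1 between strains at 30 °C (0.41, adjusted p = 0.0864) and PDI1 in IDRm at 42 °C (0.36, adjusted p = 0.0693) lost theirs, so 1 gene in place of 2 was called between strains at 30 °C. Same-numbered libraries deviated together, with a correlation over 0.1, in 0 of 6 pairs of total RNA and 5 of 30 pairs of fractions. The 2 highest were pellet with soluble RNA of IDRm at 42 °C (0.582) and of WT at 30 °C (0.313). The other pairs of pellet and soluble RNA from the same strain and temperature ran from -0.113 to 0.0424. The main tests did not pair samples by number. The block had a term per culture, and a pairing of pellet and soluble RNA by harvest was not tested. The descriptive insoluble shares join libraries by number. Depth was lowest at 4934241 counts, and the lowest count of a member in a library was 143.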
